A study of Homo sapiens with 6 samples.

Results

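The proteasome genes are those that the platform annotation maps to a symbol beginning with PSMA, PSMB, PSMC, PSMD, PSME, PSMF or PSMG and a number, without PSMB8 and PSMB9. That rule used no measured value, though it and the other gene lists were chosen with earlier results of these data known. The rule took 71 of the 47322 probes, for 46 of 20046 annotated genes. Of these, 42 genes encode a subunit, activator, inhibitor or assembly factor of the proteasome, and 4 match by name only (PSMC3IP, PSME3IP1, PSMG3-AS1 and PSMD6-AS2). The subunit genes PSMA7, PSMC5, PSMD7 and PSMD13 were not analysed here. Not all 42 are constitutive: PSMB10 is a subunit induced by interferon, and PSMA8 and PSMB11 are the testis and thymus forms.

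The RNA came from T47D, an established oestrogen receptor positive breast cancer cell line, grown in RPMI medium with serum. A mimic of the microRNA miR-489 was introduced into 3 samples and a scrambled control siRNA into the other 3, and total RNA was taken 72 h later. All 6 samples are of this 1 line, and the control is an siRNA, not a microRNA mimic. Whether the 3 replicates of a group are separate cultures is not stated, so every p-value reflects only how far these samples differ, and that spread could be technical.

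The proteasome degrades proteins that carry ubiquitin chains. Its core particle is a barrel of alpha and beta rings, in which PSMB5, PSMB6 and PSMB7 are the proteolytic subunits. The regulatory particle that caps it has a base, whose ATPases PSMC1 to PSMC6 unfold substrates, and a lid, in which PSMD14 removes the ubiquitin chain. In many cell types these genes are transcribed together under the factor NFE2L1.

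The labels do not name the arm of the mimic. The mature form listed in RefSeq (GRCh38.p14, chr7:93483947-93483968, minus strand) is shown as the RefSeq form of the microRNA named in the labels, with its seed, bases 2 to 8, in capitals.
hsa-miR-489-3p: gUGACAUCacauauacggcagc

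Mean intensity per array ran from 526 to 619, and 16452 to 17346 probes were detected (detection p below 0.01). Arrays of 1 group correlated at 0.982 to 0.993 and arrays of different groups at 0.945 to 0.958 over the 17104 kept probes. All 10 luminal markers were measured (ESR1, FOXA1 and KRT19 fell, at -1.16, -1.05 and -0.51, and EPCAM and KRT8 rose, at 0.50 and 0.46), against 1 of 8 fibroblast markers (COL1A1), 2 of 7 annotated leukocyte markers (CD14 and CD68) and 0 of 5 endothelial markers. Probes for the defining leukocyte marker PTPRC and the defining endothelial marker PECAM1 were among those not kept. The measured leukocyte genes CD14 and CD68 differed by -1.34 and -0.59 (both called), and the part of these marker differences in the results below was not tested.

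Few proteasome genes passed the test. Of the 71 probes 59 were kept (detection p below 0.01 on at least 3 of 6 arrays), for 39 of the 42 proteasome genes and 3 of the 4 genes matched by name. Levels and differences below are on the log2 intensity scale, a gene is read from its brightest kept probe, and rose or fell is used only for a limma adjusted p below 0.05 over all kept probes. In limma, 4 of 39 proteasome genes rose (PSMG1, PSMD12, PSMG4 and PSMA3), 3 fell (PSME1, PSMD5 and PSMD1) and 32 were not called. The share called was 17.9%, beside 35.7% of all 10503 genes. Higher calls made up 18.4% of all genes and lower calls 17.3%, or 1933 and 1819 genes, a split that became 2383 and 1431 with median scaling. The number that rose was 1 without scramble array 2 or 3 or mimic array 1 or 3, and the number that fell was 0 without scramble array 2 and 1 without any other array. At an unadjusted p below 0.05, limma gave 8 higher and 4 lower. The share of all genes at that cut is not given here, so these counts cannot be read as a shift of the proteasome genes. On its brightest probe no proteasome gene differed by 2-fold or more (the second PSMG1 probe did, and so did PSMG1 as the mean of its probes, at 1.24), a size that 10.5% of all genes reached, and 3 of 39 (7.69%) differed by at least 1.5-fold, against 28.8% of all genes. The median absolute log2 difference was 0.24, against 0.35 over all genes, with a median standard error of 0.15 against 0.16. Proteasome genes were also brighter, with a median level of 11.13 against 8.38. Small differences were not particular to them. In the COP9 signalosome and eIF3 genes, described below, the median absolute difference was 0.15 and 0.14, and 11.1% and 7.69% differed by at least 1.5-fold.

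The small differences lay more often above 0 than below it. The estimate was above 0 for 27 of 39 proteasome genes, with a median of 0.17, whereas 52% of all genes were above 0, with a median of 0.03. With median scaling the median of all genes was 0.11, and those of core, base and lid were 0.29, 0.12 and 0.37. Groups did not overlap for 17 of 39, against 51.4% of all genes. In bulk RNA, fewer cells of a type and less RNA per cell cannot be told apart.

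**Figure D1:**
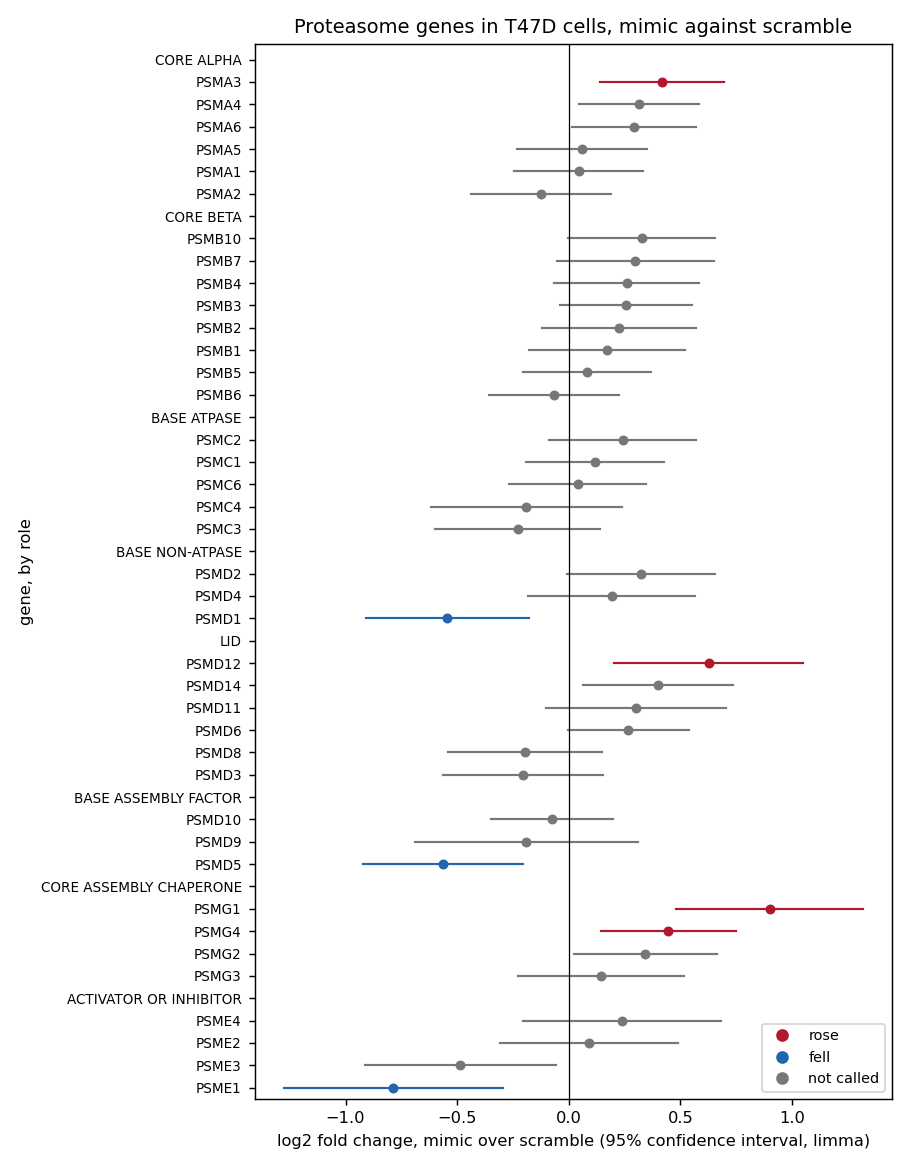
Log2 fold change of each of the 39 measured proteasome genes (x axis, mimic over scramble, 3 arrays per group, bars for the unadjusted 95% confidence interval from limma), grouped by role on the y axis. The estimates run from -0.79 for PSME1 to 0.90 for PSMG1, and 32 of the 39 are grey, not called after adjustment.

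The alpha ring had 6 measured genes, of which PSMA3 rose and none fell. PSMA3, an outer-ring subunit, measured 11.35, 11.56 and 11.51 on scramble arrays 1 to 3 and 11.89, 11.89 and 11.88 on mimic arrays 1 to 3. All mimic arrays lay above all scramble arrays. The difference was 0.42 ± 0.12 (SE, n = 3 per group), a 1.34-fold rise with a limma adjusted p = 0.0303. This call was lost without any 1 of the 6 arrays, with differences of 0.36 to 0.46 and an adjusted p of 0.0517 to 0.0863.

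PSMA4 and PSMA6 shared that direction at the threshold. PSMA4, also of the alpha ring, measured 12.79, 12.67 and 12.72 in scramble and 13.04, 13.09 and 12.99 in mimic arrays, with no overlap, and its difference of 0.31 ± 0.12 was not called (limma adjusted p = 0.0718). A dimmer probe of PSMA4 was called, at 0.45 ± 0.13 (limma adjusted p = 0.0292). PSMA6 behaved alike. Its brighter probe read 12.95, 13.04 and 13.16 and then 13.33, 13.36 and 13.34, a difference of 0.29 ± 0.12 (limma adjusted p = 0.0979), and its dimmer probe differed by 0.45 ± 0.14 (limma adjusted p = 0.0373). The second probe of PSMA3 differed by 0.32 ± 0.13 and was not called (limma adjusted p = 0.0937). For each of these 3 genes both probes were thus higher on every mimic array than on any scramble array, and which probe passed the threshold differed from gene to gene. PSMA1 (0.04), PSMA5 (0.06) and PSMA2 (-0.13) were not called, and their 95% intervals, unadjusted, were -0.25 to 0.33, -0.23 to 0.35 and -0.44 to 0.19. PSMA8 was detected on 0 of 6 arrays.

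Among the beta-ring genes, 8 were measured, and limma called 0, with 0 also at an unadjusted p below 0.05. The uncalled gene with the smallest p was PSMB10, the interferon-induced form of the trypsin-like subunit, at 9.47, 9.44 and 9.27 in scramble and 9.60, 9.93 and 9.63 in mimic arrays. Its groups did not overlap, and the difference was 0.33 ± 0.14 (limma adjusted p = 0.113, and 0.0372 with median scaling). None of the proteolytic subunits was called. PSMB7, the constitutive trypsin-like subunit, differed by 0.30 ± 0.15, PSMB5, the chymotrypsin-like subunit that bortezomib blocks, by 0.08 ± 0.13, and PSMB6, the caspase-like subunit, by -0.07 ± 0.13. Their unadjusted 95% intervals of -0.05 to 0.65, -0.21 to 0.37 and -0.36 to 0.23 leave out a 2-fold change of either sign. The structural subunits PSMB3 (0.26), PSMB4 (0.26), PSMB2 (0.22) and PSMB1 (0.17) were also above 0 without a call. The 2 probes of PSMB11 were detected on 0 of 6 arrays.

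In the base, the 5 measured ATPase genes gave 0 calls in limma, and 0 on their brightest probes at an unadjusted p below 0.05. PSMC2 had the smallest p among them, with 11.61, 11.38 and 11.39 in scramble and 11.70, 11.53 and 11.88 in mimic arrays, which overlapped, and a difference of 0.24 ± 0.14 (limma adjusted p = 0.229). The others were PSMC1 (0.12 ± 0.13), PSMC6 (0.04 ± 0.13), PSMC4 (-0.19 ± 0.19) and PSMC3 (-0.23 ± 0.16), with signs on both sides of 0. The other probe of PSMC1 differed by 0.42 ± 0.18 without overlap (unadjusted p = 0.0446, limma adjusted p = 0.101). The 3 kept probes of PSMC4 gave -0.19, 0.02 and 0.29, so its sign depended on the probe, and none was called.

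PSMD1, a large scaffold subunit of the base, fell. It measured 10.39, 10.21 and 10.12 in scramble and 9.87, 9.43 and 9.79 in mimic arrays, so that every mimic array was below every scramble array. The difference was -0.54 ± 0.16, a 1.46-fold fall (limma adjusted p = 0.0314). The call was lost without scramble array 1, 2 or 3 or mimic array 2 or 3, with differences of -0.41 to -0.60 (adjusted p of 0.0541 to 0.0812), and with median scaling (adjusted p = 0.122). The related scaffold subunit PSMD2 read 11.93, 11.88 and 11.66 in scramble and 12.09, 12.01 and 12.34 in mimic arrays, the reverse order without overlap, and was not called (0.32 ± 0.14, limma adjusted p = 0.118). PSMD4, a ubiquitin receptor, differed by 0.19 ± 0.16, and its other probes by 0.22 and 0.21.

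The lid had 6 measured genes within the symbol rule, with 1 rise and 0 falls, and a further lid gene outside it, SEM1, rose by 0.37, a call lost without any 1 array (0.34 to 0.40). PSMD12, a scaffold subunit, measured 11.00, 10.39 and 10.54 in scramble and 11.38, 11.08 and 11.35 in mimic arrays. The mimic arrays lay above the scramble arrays, with scramble array 1 close below mimic array 2. The difference was 0.63 ± 0.18, a 1.54-fold rise (limma adjusted p = 0.0316). It was not called without scramble array 2 or 3 or mimic array 1 or 3, where the difference was 0.50 to 0.59 (adjusted p of 0.0963 to 0.0984). The other 3 PSMD12 probes were detected on 0 of 6 arrays.

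PSMD14, the deubiquitinase of the lid, was close to the threshold. Its values were 10.99, 10.82 and 10.99 in scramble and 11.49, 11.10 and 11.41 in mimic arrays, without overlap, and the difference was 0.40 ± 0.15 (limma adjusted p = 0.0668). It was called without mimic array 2, at 0.52 (adjusted p = 0.0266). The remaining lid genes split by sign without a call: PSMD11 (0.30), which stabilises the joint of lid and core, and PSMD6 (0.27) were above 0, and PSMD8 (-0.20) and PSMD3 (-0.20) below it.

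Set side by side within the symbol rule, the core had a median log2 fold change of 0.24 over 14 genes, the lid 0.28 over 6 and the base 0.08 over 8. Calls numbered 1 of 14 (7.14%) in the core, 1 of 6 (16.7%) in the lid and 1 of 8 (12.5%) in the base, the last a fall, beside 35.7% of all genes. Relative to each gene's scramble mean, the median of the core genes was 0.06, -0.02 and -0.05 on scramble arrays 1 to 3 and 0.15, 0.22 and 0.22 on mimic arrays 1 to 3. For the lid these medians were 0.20, -0.12 and -0.04 and then 0.40, 0.07 and 0.37, and for the base 0.14, -0.03 and -0.08 and then 0.19, -0.04 and 0.04. The groups of arrays were apart for the core and overlapped for lid and base, where scramble array 1 was as high as some mimic arrays. Estimates ranged from -0.13 to 0.42 in the core, from -0.20 to 0.63 in the lid and from -0.54 to 0.32 in the base. No test of a difference between core, base and lid was made.

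**Figure D2:**
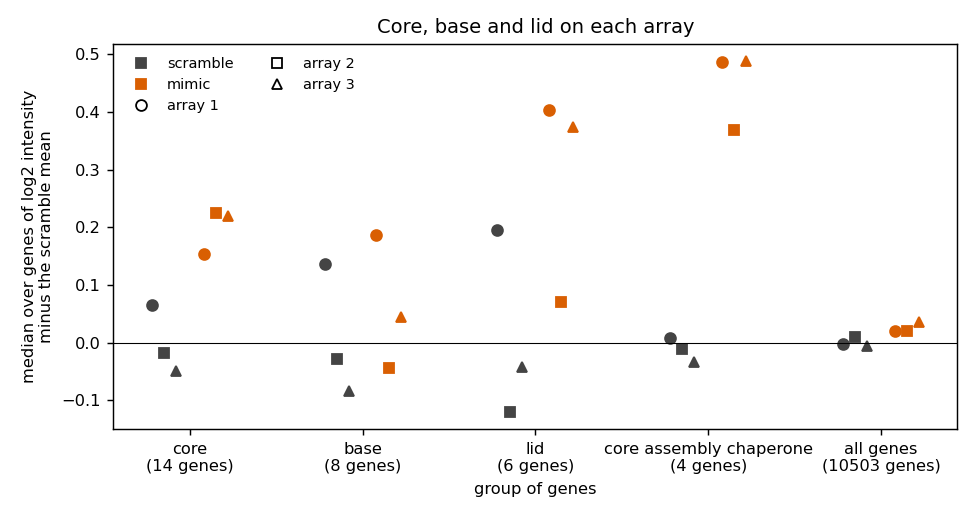
Median over the genes of each group (x axis) of log2 intensity minus that gene's scramble mean (y axis), for each of the 3 scramble and 3 mimic arrays, with the array number as symbol. Core and PSMG (core assembly chaperone) genes separate the mimic from the scramble arrays, at 0.15 to 0.22 and 0.37 to 0.49 on the mimic arrays, while base and lid overlap and the median of all genes stays within 0.04 of 0.

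The largest rise among the proteasome genes was that of PSMG1, a chaperone that builds the core. The 4 PSMG genes were all measured, 2 rose and 0 fell (50% called, beside 35.7% of all genes called and 18.4% called higher). Their 4 estimates were above 0 with a median of 0.39, beside 52% of all genes above 0. A further core chaperone outside the symbol rule, POMP, differed by 0.22 ± 0.13 and was not called. PSMG1 and PSMG2 form a pair that assembles the alpha ring, and PSMG3 and PSMG4 form a second pair. PSMG1 measured 10.54, 10.02 and 10.07 in scramble and 11.25, 10.88 and 11.21 in mimic arrays. Each mimic array exceeded each scramble array, and the difference was 0.90 ± 0.18, a 1.87-fold rise (limma adjusted p = 0.00741). A dimmer PSMG1 probe moved further, from 9.39, 8.92 and 9.17 to 10.80, 10.44 and 11.01, a difference of 1.59 ± 0.19 or 3.00-fold (limma adjusted p = 0.000802). PSMG1 was the single proteasome gene among the 7 called that stayed called under all 18 alternatives, with differences of 0.81 to 1.24. By estimate it stood at place 603 of 10503 from the largest rise.

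PSMG4 read 9.33, 9.26 and 9.17 in scramble and 9.79, 9.53 and 9.78 in mimic arrays, without overlap, a rise of 0.45 ± 0.13 (limma adjusted p = 0.0318). Without scramble array 2 or 3 or mimic array 1 or 3 it was not called, at 0.40 to 0.45 (adjusted p of 0.0755 to 0.106). Its second probe was detected on 0 of 6 arrays. PSMG2 was not called, with 11.27, 11.29 and 11.42 in scramble and 11.77, 11.78 and 11.46 in mimic arrays and a difference of 0.34 ± 0.14 (limma adjusted p = 0.0907). PSMG3 differed by 0.14 ± 0.16, and its arrays overlapped.

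Of the factors that assemble the base, the 3 within the symbol rule had estimates below 0, and PSMD5 fell, whereas PAAF1, outside the rule, rose by 0.64 ± 0.15 (limma adjusted p = 0.0131), though not without mimic array 3 (0.58, adjusted p = 0.0531). PSMD5, which binds base ATPases before the particle is complete, measured 8.25, 8.02 and 7.91 in scramble and 7.5, 7.29 and 7.70 in mimic arrays. The groups did not overlap, and the difference was -0.56 ± 0.16, a 1.48-fold fall (limma adjusted p = 0.0258). The call was lost without scramble array 1 or 2 or mimic array 1 or 2, at -0.46 to -0.58 (adjusted p of 0.0597 to 0.0714), and with median scaling (0.0566). PSMD9, with overlapping values of 7.06, 6.70 and 6.48 and 6.89, 6.19 and 6.59, differed by -0.19 ± 0.22 (limma adjusted p = 0.532). PSMD10, known as the oncoprotein gankyrin, differed by -0.07 ± 0.12, a sign that turned with median scaling (0.06).

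Among the activators, PSME1 fell and its partner PSME2 was not called. The products of these genes form a joint ring that opens the core and aids antigen processing. PSME1 measured 11.36, 12.01 and 11.92 in scramble and 10.82, 11.29 and 10.82 in mimic arrays. Mimic array 2 was just below scramble array 1, and the groups did not overlap. The difference was -0.79 ± 0.21, a 1.73-fold fall (limma adjusted p = 0.0239). The call was lost without scramble array 2 or 3 or mimic array 1 or 3, at -0.66 to -0.71 (adjusted p of 0.0776 to 0.0840). PSME2 read 10.40, 10.80 and 10.59 and 10.58, 10.98 and 10.50, overlapping, with a difference of 0.09 ± 0.17 (limma adjusted p = 0.718).

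Interferon-induced genes were high on array 2 of both groups. Of the 12 measured genes of the interferon and immunoproteasome list, 10 were highest on array 2 within each group, and the summed intensity of the list was 35376 and 35991 on scramble and mimic array 2, against 15957 to 20070 on the other arrays. IFI6, named after its values were seen, measured 11.05, 13.36 and 11.29 in scramble and 10.38, 13.39 and 10.15 in mimic arrays. PSME1 and its uncalled partner PSME2 were likewise highest on array 2 within each group. When both of these arrays were left out, a setting added once the values were known, PSME1 differed by -0.82 (adjusted p = 0.0366).

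PSME3, the nuclear activator, had 10.92, 10.38 and 10.38 in scramble and 9.97, 9.97 and 10.29 in mimic arrays. Its groups were apart, and the difference of -0.49 ± 0.19 was not called (limma adjusted p = 0.0778), while a dimmer probe was, at -0.55 ± 0.16 (limma adjusted p = 0.0317). PSME4, an activator linked to histone degradation, differed by 0.24 ± 0.19 with overlapping arrays. PSMF1, which encodes an inhibitor of the core, was detected on 0 of 6 arrays and so has no difference here.

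**Figure D3:**
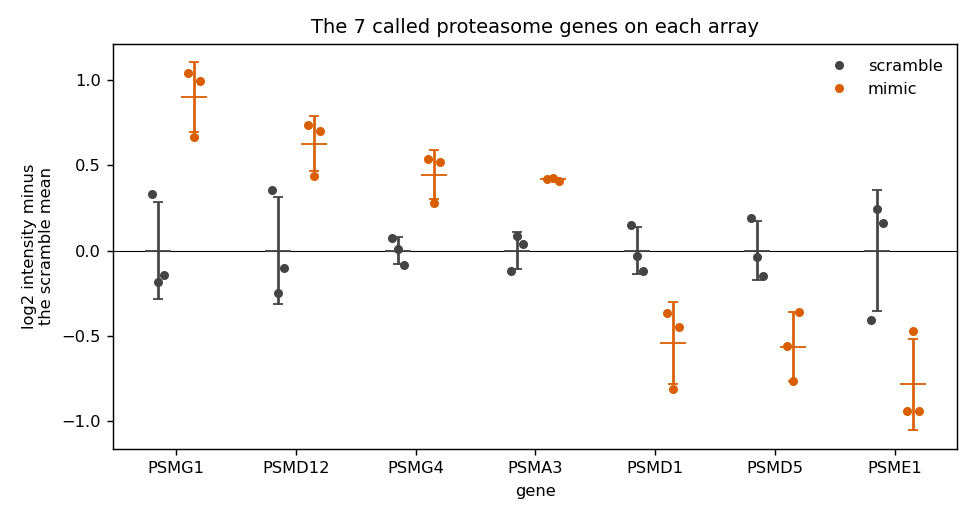
Log2 intensity minus the scramble mean (y axis) on each array for the 7 called proteasome genes (x axis), with the mean and SD of each group (n = 3). In all 7 the mimic points lie on 1 side of the scramble points, and the gap is narrowest in PSME1.

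Partner or related subunits could be compared within each array. For 6 pairs, chosen after single values had been seen, the difference between 2 genes' deviations from their scramble means is given as a description, with no test. For PSME1 minus PSME2 it was -0.21, 0.04 and 0.17 in scramble and -0.93, -0.86 and -0.85 in mimic arrays. PSMD2 minus PSMD1 gave -0.04, 0.09 and -0.05 in scramble and 0.63, 1.01 and 0.96 in mimic arrays. In both pairs the groups did not overlap. For PSMD2 and PSMD1 this follows from the single genes, whose groups were each apart in opposite directions. The other 4 pairs overlapped between groups. Their mean differences between groups were 0.56 ± 0.27 for PSMG1 minus PSMG2, 0.30 ± 0.16 for PSMG4 minus PSMG3, -0.12 ± 0.08 for PSMC1 minus PSMC2 and -0.27 ± 0.16 for PSMC3 minus PSMC6.

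Probes of 1 gene often differed in call or in sign. Of the 12 proteasome genes with more than 1 kept probe, none had probes called in opposite directions. In PSMA3, PSMA4, PSMA6 and PSME3, 1 probe passed and the other did not. Over all 59 kept probes, name-only genes included, 9 were called higher, 4 lower and 46 not at all (22% called, against 33.9% of all kept probes). The 9 include PSMG3-AS1, which was kept only through the mimic arrays and whose call is not read as a result.

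**Figure D4:**
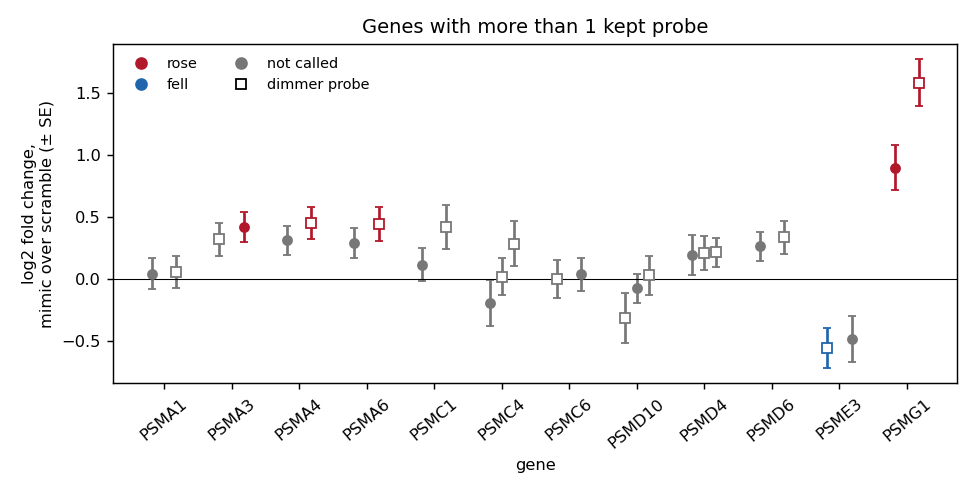
Log2 fold change with SE (y axis, n = 3 arrays per group) for every kept probe of the 12 proteasome genes that have more than 1, with filled circles for the brightest probe and open squares for the others. The probes of PSMG1 sit at 0.90 and 1.59, those of PSMC4, PSMC6 and PSMD10 on both sides of 0.

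Of the genes that match by name only, PSME3IP1 rose. PSME3IP1, whose product binds the activator encoded by PSME3, measured 7.04, 6.65 and 6.98 in scramble and 7.53, 7.61 and 7.52 in mimic arrays. The groups did not overlap, and it rose by 0.66 ± 0.14 (limma adjusted p = 0.00940). PSMG3-AS1, an antisense RNA beside PSMG3, was detected on 0 of 3 scramble and 3 of 3 mimic arrays and was at least 1.72-fold higher there, a bound against the lowest signal among detected probes. It passed the filter only through the mimic arrays, so no test is given for it. PSMC3IP, which acts in homologous recombination, was not called (-0.28 ± 0.24), and PSMD6-AS2 was detected on 0 of 6 arrays.

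Promoters of the proteasome genes were searched for the core of the antioxidant response element, TGANNNNGC, which NFE2L1 binds, and for CCAAT, the NF-Y box, on both strands. The window ran from 250 bases before to 50 after the first-listed start (RefSeq, GRCh38.p14), and 34 of the 39 measured genes had one. The element core was in 21 of 34 (61.8%), against 42.1% of 27305 promoters of that length, and CCAAT in 15 (44.1%) against 35.7%. Both shares rest on short motifs that occur often, and a match is not a bound site. By class, the element core was in 7 of 11 core, 3 of 7 base and 4 of 6 lid promoters.

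The 150 bases before the start are shown for 3 called genes that differ in these motifs within that stretch, with motif letters in capitals. PSMA3 (chr14:58244693-58244842, plus strand) has both motifs, PSMG1 (chr21:39183452-39183601, minus strand) the element core on each strand, and PSMG4 (chr6:3258797-3258946, plus strand) neither. In the longer window searched, PSMG1 also has 1 CCAAT, outside the bases shown.
PSMA3: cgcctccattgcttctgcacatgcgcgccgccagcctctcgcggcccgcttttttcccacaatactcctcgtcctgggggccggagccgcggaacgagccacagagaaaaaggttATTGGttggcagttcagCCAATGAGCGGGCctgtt
PSMG1: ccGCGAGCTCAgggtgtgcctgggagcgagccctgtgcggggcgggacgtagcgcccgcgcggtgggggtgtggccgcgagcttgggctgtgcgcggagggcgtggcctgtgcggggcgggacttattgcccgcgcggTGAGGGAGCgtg
PSMG4: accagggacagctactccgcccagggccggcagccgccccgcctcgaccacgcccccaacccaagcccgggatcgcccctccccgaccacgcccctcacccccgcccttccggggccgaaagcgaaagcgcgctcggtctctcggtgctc
In PSMA3 the CCAAT nearer the start overlaps the element core, so the capitals run together there. PSMG1 and PSMG4 both rose, with and without the element core in this window. PSME1, PSMD5 and PSMD1, which fell, each also hold at least 1 match in the 300 bases.

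Proteasome genes outside the symbol rule had 4 rises and 0 falls among 12 measured (33.3% called, against 35.7% of all genes), with a median of 0.21. UCHL5, a deubiquitinase of the base, measured 9.59, 9.27 and 9.42 in scramble and 10.38, 10.16 and 10.37 in mimic arrays. It rose by 0.87 ± 0.14, 1.83-fold, without overlap (limma adjusted p = 0.00275). PAAF1, the base assembly factor named above, also rose, as did ECPAS, a proteasome adaptor, by 0.48 ± 0.13 and SEM1, a small lid subunit, by 0.37 ± 0.12. The second probe of SEM1 was not called (0.17 ± 0.17). The calls of PAAF1, ECPAS and SEM1 depended on single arrays. As given above, the SEM1 call was lost without any 1 array and that of PAAF1 without mimic array 3. That of ECPAS was lost without scramble array 2 or 3 or mimic array 1 or 3 (0.38 to 0.52). The count of rises in this list was 1 without mimic array 3, 2 without scramble array 2 or 3 or mimic array 1, and 1 when array 2 was dropped from both. The ubiquitin receptor ADRM1 (-0.10) was not called.

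Genes that mark and deliver substrates gave 5 falls. Of 10 measured genes for ubiquitin, its activating enzymes, shuttle proteins and unfoldase cofactors, 5 fell, 0 rose and 5 were not called (50% called, beside 35.7% of all genes called and 17.3% called lower), with a median of -0.46. UBA1, the main ubiquitin-activating enzyme, measured 12.58, 12.99 and 12.75 in scramble and 11.66, 11.84 and 11.66 in mimic arrays, a fall of 2.08-fold (-1.06 ± 0.15, limma adjusted p = 0.00156). No mimic array reached the scramble arrays. NSFL1C, a cofactor of the VCP unfoldase, changed by -0.90 ± 0.19, and the shuttle genes UBQLN4 and UBQLN2 by -0.84 ± 0.13 and -0.82 ± 0.12. UBA1, NSFL1C, UBQLN4 and UBQLN2 stayed called under the 18 alternatives. A related shuttle gene, UBQLN1, differed by 0.09 ± 0.13 on its brightest probe without a call, while its other probes were at 0.60 ± 0.20 (limma adjusted p = 0.04998, a rise) and 0.48 ± 0.16 (limma adjusted p = 0.0514). UFD1, another VCP cofactor and the fifth that fell (-0.56 ± 0.17), lost its call without any 1 array (-0.40 to -0.64), with median scaling (-0.48), as the mean of its probes (-0.48) and in the authors' values (-0.20). UBB, which encodes ubiquitin, was at 0.36 without a call.

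A list of genes around NFE2L1, which also holds VCP, NGLY1, SYVN1 and FAF2, gave 2 calls among 10 measured (20%, beside 35.7% of all genes). NFE2L1 itself, named after its values were seen, read 9.83, 10.27 and 10.09 in scramble and 9.79, 10.03 and 9.82 in mimic arrays, which overlapped, and differed by -0.18 ± 0.15 (limma adjusted p = 0.396). Of its small MAF partners, MAFG rose (0.58 ± 0.18, and its second probe, at 0.57, was not called) and MAFF fell (-0.60 ± 0.17). The calls of MAFG and MAFF were lost without scramble array 1 or 3 or mimic array 1 or 3, with MAFG at 0.46 to 0.59 and MAFF at -0.49 to -0.59. In the authors' values MAFG was at 0.21 and not called.

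**Figure D5:**
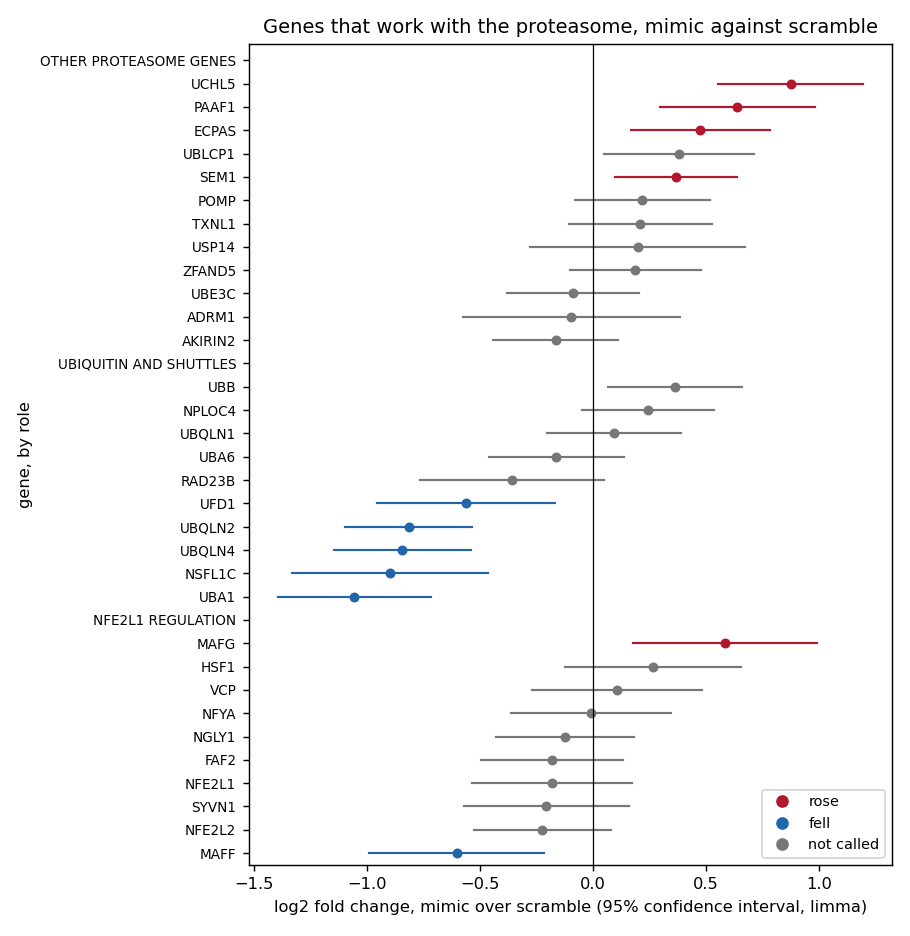
Log2 fold change (x axis, mimic over scramble, 3 arrays per group, unadjusted 95% confidence interval from limma) for 32 measured genes that work with the proteasome, by role on the y axis. The 5 falls of the ubiquitin list lie between -1.06 and -0.56, and the 4 rises among other proteasome genes between 0.37 and 0.87.

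PSMB8 and PSMB9, the immunoproteasome subunits that replace PSMB5 and PSMB6, were called in opposite directions on their brightest probes, with other probes at odds. PSMB8 measured 8.86, 9.34 and 8.69 in scramble and 8.02, 8.52 and 8.18 in mimic arrays, a difference of -0.72 ± 0.20 (limma adjusted p = 0.0282). PSMB9 read 4.80, 5.72 and 5.40 and 6.41, 7.67 and 6.99, a rise of 1.72 ± 0.34 (limma adjusted p = 0.00656) on a probe detected on 2 of 3 scramble arrays. Of the other kept PSMB8 probes, 1 fell (-0.82 ± 0.18) and 1 was at -0.01 ± 0.19 without a call, and the mean of the probes was not called (-0.52, adjusted p = 0.0519). The call of PSMB8 was lost without scramble array 2 or mimic array 1 or 3 (-0.53 to -0.69), and PSMB9 was at 0.52 without mimic array 3, where its other probe was the brighter. Over all 6 arrays that probe differed by 0.24 ± 0.27 and was not called (limma adjusted p = 0.522). In that list of 12, 1 gene was called higher and 2 lower (25% called, beside 35.7% of all genes). The third call was OAS2, an antiviral synthetase, at 7.89, 10.03 and 8.75 in scramble and 4.5, 7.11 and 4.91 in mimic arrays. OAS2 was detected on 3 of 3 scramble and 1 of 3 mimic arrays. It was thus kept through the scramble arrays, where it was high, and its call is not read as a result.

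The lid is related in structure to the COP9 signalosome and to the translation factor eIF3. Of 9 measured COP9 genes 2 fell and 0 rose (22.2% called, beside 35.7% of all genes), with a median of -0.06. In limma COPS7B changed by -0.97 ± 0.14 and COPS2 by -0.57 ± 0.13, a call lost without both arrays numbered 2 (adjusted p = 0.0518). Of 13 eIF3 genes 2 fell and 1 rose (23.1% called, beside the same 35.7%), with a median of -0.0016. EIF3C changed by -1.13 ± 0.17, EIF3G by -0.44 ± 0.12 and EIF3J by 0.42 ± 0.14. EIF3B was not called on its brightest probe (0.36 ± 0.18), and its other kept probes rose (0.59 ± 0.13 and 0.86 ± 0.20). EIF3G was not called without scramble array 2 or 3 or mimic array 1 or 2 (-0.40 to -0.44), and EIF3J not without scramble array 1, 2 or 3 or mimic array 1 or 3 (0.32 to 0.46). The lid median of 0.28 stood above both, and that difference was not tested.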

How the data were processed

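Expression was measured on 1-colour Illumina arrays with biotin-labelled cRNA, in 3 scramble and 3 mimic samples. Per the file headers, the authors deposited a non-normalized table with a linear intensity beside its detection p-value for 47322 probes per array. The authors also deposited a processed intensity table, whose columns share a median of 200.783 and, as deviations from each probe's mean over the arrays on the log2 scale, correlate with their own arrays at 0.978 or more (with other arrays at no more than 0.799). The submitters' processing notes name lumi 3.2.2. The processed values are on a linear scale. Their transform and centring, and the software behind the first table, have no statement in the labels.

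Background was removed with nec (limma 3.58.1, R 4.3.3, offset 16), arrays were quantile-normalized and log2 was taken. Probes with detection p below 0.01 on at least 3 arrays were kept. The groups were compared with lmFit and eBayes (two-sided), with Benjamini-Hochberg adjustment across the 17104 kept probes. The number of arrays limits the precision. Symbols come from the platform annotation of 2016 (30113 probes with 1 symbol, 8 with several, 17201 unlisted), updated by Entrez identifier. A gene is read from its kept probe with the highest mean. Promoters and the microRNA come from RefSeq (GRCh38.p14). Alternatives covered background, scaling, filter, probe choice, test and each array. The fit was run on simulated data, with planted changes larger than that of any proteasome gene on its brightest probe. Smaller changes were not simulated.

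The members and gene lists were chosen with earlier results of these data known. Values on every array are given for up to 4 called genes per class with the largest fold, the uncalled gene with the smallest p and genes whose probes differ in call. Up to 4 called genes are named from each other list. Other names were chosen after their values were seen.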

Additional observations from a re-analysis of the deposited data

How the results depend on the processing

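Of 39 proteasome genes, 32 kept their sign under all 18 alternatives, and 8 uncalled genes were called under at least 1. The number that rose (4) was 10 in the authors' processed table, 9 without background correction and 9 under a robust trended eBayes, and 2 without a filter on dim probes or without both arrays numbered 2. Of all 10503 genes, 1933 were called higher in the main fit. That count was 2010 in the authors' table, 2129 without background correction and 2139 under the robust trended eBayes. It was 1414 without both arrays numbered 2, and 1516 of 20046 without a filter. The number that fell (3) was 1 with median scaling and without both arrays numbered 2, and 0 without a filter, where 20046 genes were tested and PSMD1, PSMD5 and PSME1 (with 4 genes lower at an unadjusted p below 0.05) had limma adjusted p-values of 0.0626, 0.0511 and 0.0583. Leaving out 1 array gave 1 to 4 rises and 0 to 1 falls, while 2533 to 3592 genes were called over all. The core median ranged from 0.19 to 0.25 over these, lowest without mimic array 3. The base median log2 fold change ranged from -0.000558 to 0.14 and the lid median from 0.22 to 0.39. Whether the replicate numbers pair the samples cannot be told from these values. The deviations of same-numbered arrays from their group means correlated at 0.36, 0.45 and -0.11. With the replicate block 5 proteasome genes rose and 3 fell, and 4260 of all genes (40.6%) were called, against 3752 (35.7%) without it. Median scaling put the median of all genes at 0.11 and split all calls into 2383 higher and 1431 lower, against 1933 and 1819.

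Signs of uncalled genes turned as follows. With cyclic loess PSMA1 was at -0.016 and PSMC6 at -0.017. Without mimic array 3, PSMA1 was at -0.0029, PSMA5 at -0.014 and PSMG3 at -0.010. PSMC6 ranged from -0.058 without mimic array 1 to 0.095 without mimic array 3, and PSME2 was at -0.0084 without scramble array 1 and -0.054 without mimic array 2. Among the settings that leave out 1 array, PSMG3 was highest without mimic array 2, at 0.23. PSMC4 was at 0.039 as the mean of its probes, and PSMD10 at 0.056 with median scaling. The cause was not tested.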
